A study of Mus musculus with 192 samples.

Results

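The 7 genes described here encode the surface molecules with which a dendritic cell instructs a T cell, or mark its maturation: Cd40, Cd80, Cd83, Cd86, Cd274, Pdcd1lg2 and Icosl. They were taken by name as 7 rows of the 23481 genes in the count table, over all 64 groups of the study. The cells were bone marrow-derived dendritic cells, grown with GM-CSF at 15 ng/mL from the marrow of C57BL/6J females aged between 6 and 8 weeks, with no genetic change named. Wells of 1e+05 cells were stimulated for 6 h with ligands of innate sensors, labelled PAM, LPS, HMW, Zymosan (named in the labels as depleted), SeV, cGAMP (the 3',3' form) and CpGB. The groups were the control, labelled Ctrl, each of the 7 ligands alone, the 21 pairs and the 35 triplets, with 3 libraries in each. The control cells shared the GM-CSF culture and lacked the ligands. The labels give no dose, and nothing in them says that the 3 libraries of a group came from separate mice or cultures, so the p-values measure only the spread between these samples, which may be technical.

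Dendritic cells that sense a microbe take up a state called maturation, in which they present antigen and raise the molecules that T cells need for activation. CD80 and CD86 bind CD28 on T cells and give the classical costimulatory signal, and they also bind the inhibitory receptor CTLA-4. CD40 is a receptor of the tumour necrosis factor family that receives CD40 ligand from activated T cells. CD274 (PD-L1) and PDCD1LG2 (PD-L2) bind the inhibitory receptor PD-1, ICOSL binds ICOS on activated T cells, and CD83 is a maturation marker that stabilises MHC class II and CD86 at the surface. Lipopolysaccharide (LPS) is sensed by TLR4, and cGAMP is a cyclic dinucleotide sensed by STING. Transcription through NF-kB and through type I interferon are the 2 arms usually followed in such cells.

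Library totals ran from 46564 to 610234 UMIs (unique molecular identifiers, which count molecules), with a median of 171616.5. The 3 Ctrl libraries were shallower than most, at 61823, 68941 and 89530 UMIs. Levels below are in CPM, the UMIs of a gene scaled to 1e+06 UMIs of the tested genes after TMM scaling; a group total of 0 UMIs in Ctrl allows a level of up to 11.7 CPM. The scale matters for every fold against Ctrl: library size alone would lower the log2 fold changes by 0.36 (median of 63 groups) and RLE scaling by 0.16, and testing without a filter on low counts would raise them by 0.25. The panel of 6 dendritic cell markers summed to between 2550 and 3847 CPM over the group means, carried by Itgax, H2-Ab1 and Cd74. Macrophage markers, 7 genes, summed to between 1723 CPM and 4908 CPM, the highest in PAM+HMW, so the cultures carried transcripts of both lists. T cell markers were near 0, with 70 UMIs in all over 9 genes, and 3 of the 9 were at 0. The B cell list had 79 UMIs, the NK cell list 2 and the plasmacytoid dendritic cell list 124. Granulocyte markers summed to between 442 and 862 CPM. In such bulk libraries, fewer cells that express a gene and less RNA per cell cannot be told apart, and the part of cell mixture in the results was not tested.

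The 7 genes differed widely in depth. Cd274 was the most abundant, with 54851 UMIs over all libraries, followed by Cd40 with 41202, Cd86 with 8926 and Cd83 with 5079; each had at least 1 UMI in every library. Icosl had 820 UMIs in 174 libraries and none in Ctrl. Pdcd1lg2 had 327 UMIs in 142 libraries, and Cd80 had 56 UMIs in 41 libraries, never more than 3 in one. Those last 2 genes did not pass the filter on low counts and were not among the 4720 genes tested, so the tests below concern 5 of the 7 members, and Cd80 and Pdcd1lg2 are given as counts.

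A gene was called higher or lower in a ligand group when its adjusted p-value (edgeR's quasi-likelihood test, Benjamini-Hochberg over all tested genes) was under 0.05 and its log2 fold change was at least 1 in size. With single ligands, 15 of the 35 member comparisons against Ctrl were called higher, beside 8.70% of comparisons over all tested genes, and 0 were called lower, beside 4.95%. Icosl, at 0 UMIs in Ctrl, passed the filter only through stimulated libraries and so could only be higher than Ctrl; without it the count was 12 of 28. LPS raised Cd40, Cd86, Cd274 and Icosl, 4 of the 5 tested members, where 14.6% of all genes rose. SeV raised 3 of 5 (10.5% of all genes) and cGAMP 3 of 5 (11.7%), in both cases Cd40, Cd86 and Cd274. CpGB raised 3 of 5 (10.8%), Cd40, Cd274 and Icosl, and PAM raised 2 of 5 (8.01%), Cd40 and Icosl. With HMW and with Zymosan 0 of 5 were called, where 0.953% and 4.43% of all genes were. Among the 48 of 105 differences between 2 single ligands that were called, beside 13.7% of all genes' differences, 15 were in Cd40, 11 each in Cd86 and Cd274, 9 in Icosl and 2 in Cd83.

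**Figure D1:**
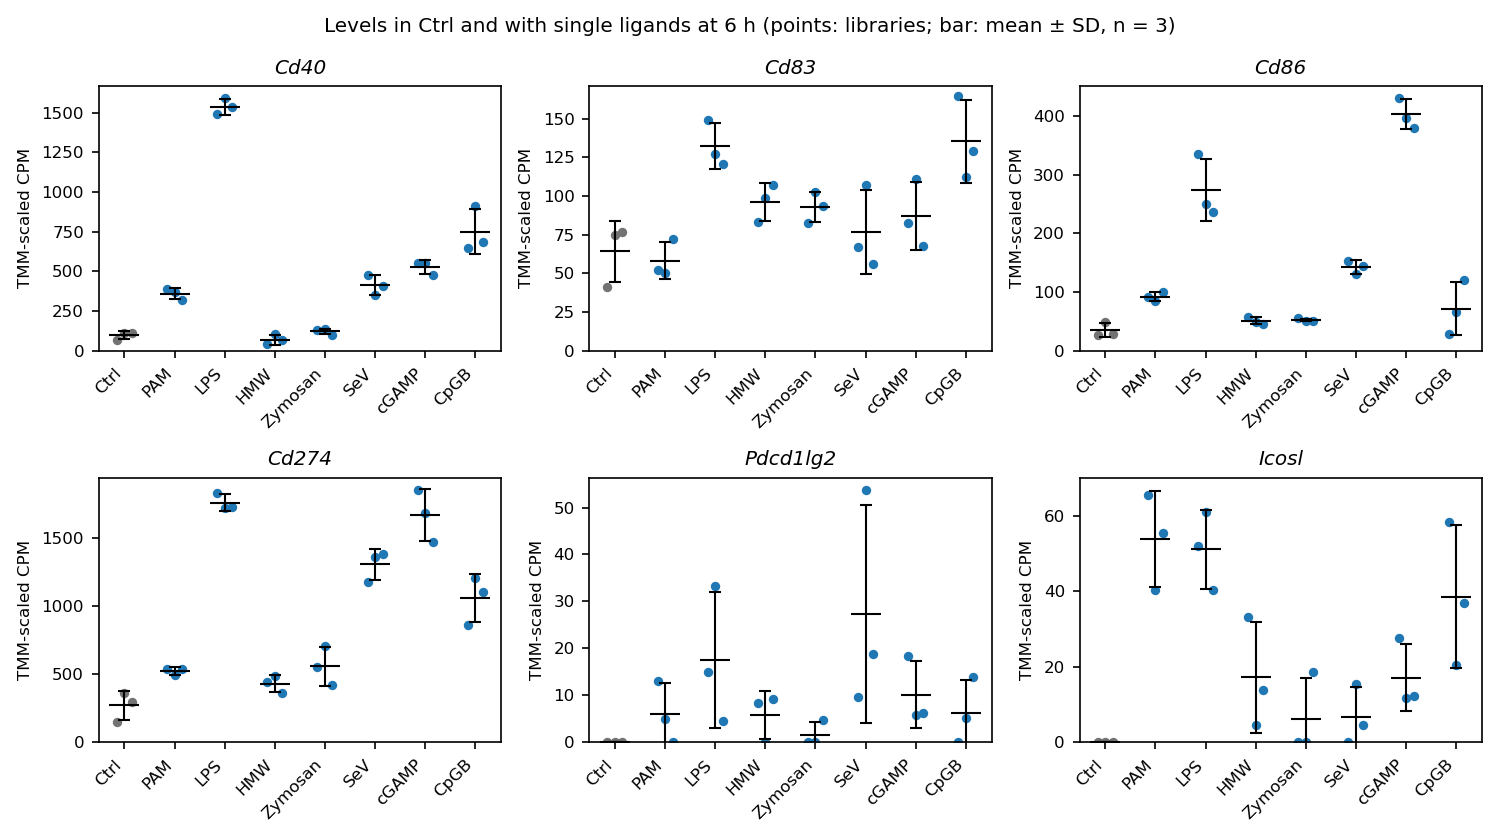
Level in CPM (linear axis from 0) of each gene other than Cd80 in Ctrl and the 7 single-ligand groups. Points are the 3 libraries of a group and bars the mean with its SD, cut at 0. Cd40 is highest with LPS, where its 3 libraries lie between 1489 and 1591 CPM, Cd86 is highest with cGAMP, and Icosl has its highest means with PAM and LPS.

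Cd40, the receptor for CD40 ligand, lies on chromosome 2 (GRCm38, 165055627 to 165072948, plus strand). Its 3 Ctrl libraries were at 69.3, 112 and 115 CPM. With LPS they were at 1489, 1591 and 1535 CPM, with CpGB at 650, 914 and 687 CPM, and with cGAMP at 550, 555 and 479 CPM. SeV gave 478, 353 and 408 CPM, and PAM 387, 372 and 322 CPM. Every library of these 5 ligands was above every Ctrl library. The log2 fold changes were 3.92 with LPS (SE 0.25, adjusted p = 5.41e-36), 2.90 with CpGB (SE 0.27, adjusted p = 7.18e-20), 2.37 with cGAMP (SE 0.29, adjusted p = 8.09e-13), 2.01 with SeV (SE 0.30, adjusted p = 7.39e-09) and 1.82 with PAM (SE 0.30, adjusted p = 1.92e-07). HMW, at 41.6, 103 and 65.1 CPM, and Zymosan, at 129, 134 and 103 CPM, overlapped Ctrl. In the order of levels, LPS stood above CpGB by 1.02 log2 (adjusted p = 1.83e-08) and CpGB above cGAMP by 0.53 (adjusted p = 0.0172, under the fold threshold). The neighbours cGAMP and SeV (adjusted p = 0.509) and SeV and PAM (adjusted p = 0.541) were not separated by the test, while PAM stood above Zymosan by 1.59 (adjusted p = 2.76e-08).

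Each ligand was added to 22 backgrounds (Ctrl, the other 6 ligands and their 15 pairs), and the mean of the 22 log2 differences was called when it was at least 0.5 with an adjusted p under 0.05. Of the 28 such means in Cd40, Cd83, Cd86 and Cd274, 13 were called higher and 0 lower, beside 8.39% and 5.53% of all genes' means. LPS raised Cd40 by 2.11 on average, with 22 of 22 differences above 0 (SE 0.04, adjusted p = 1.42e-131, where 14.9% of all genes were higher on average). Its largest step was on HMW, from 69.9 ± 31.1 to 1623 ± 49.8 CPM (SD, n = 3), 4.43 log2. Its smallest was on PAM+cGAMP, from 1510 ± 84.5 to 2570 ± 717 CPM, 0.77 log2. CpGB raised Cd40 by 1.25 (SE 0.04; 6.12% of all genes), cGAMP by 1.00 (SE 0.04; 14.3%), PAM by 0.84 (SE 0.04; 6.53%) and SeV by 0.73 (SE 0.04; 7.90%). The backgrounds differed: cGAMP (5.65% of all genes' single additions were called higher) passed on 10 of the 16 backgrounds without LPS, with a median of 1.29, and on 0 of the 6 that held LPS, with a median of 0.10. PAM (2.68%) likewise was called on 10 of 16 backgrounds without CpGB (median 1.23) and on 0 of 6 with it (median -0.15). Split by LPS instead, PAM gave the same counts, 10 of 16 without LPS (median 1.23) and 0 of 6 with it (median 0.42).

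Zymosan gave differences below 0 for Cd40 in most stimulated backgrounds, none of them past the fold threshold. Its mean effect was -0.21 (SE 0.04, adjusted p = 4.82e-06), under the 0.5 threshold, with 16 of 22 differences below 0. The mean stayed below 0 with an adjusted p under 0.05 in all 9 alternatives, from -0.14 to -0.25. In 6 of the 22 backgrounds Cd40 was lower with Zymosan at an adjusted p under 0.05, all by less than the fold threshold, beside 1.95% of all genes' additions of Zymosan with no fold threshold. The largest of these was on PAM+LPS, where the 3 libraries went from 2169, 2735 and 2443 CPM to 1272, 1416 and 1649 CPM, so that the groups did not overlap (-0.76 log2, SE 0.14, adjusted p = 2.43e-05). Added to LPS+CpGB, Zymosan took Cd40 from 3075 ± 38.3 to 1924 ± 50.9 CPM (SD, n = 3; -0.68 log2, adjusted p = 0.000142). On HMW alone it went from 69.9 ± 31.1 to 171 ± 18.1 CPM, a called rise of 1.19 log2 (adjusted p = 0.00136), where 2.51% of all genes' additions of Zymosan were called higher.

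The highest Cd40 levels were in LPS+cGAMP+CpGB, at 3141 ± 282 CPM, and LPS+CpGB, whose 3 libraries were at 3031, 3101 and 3093 CPM. In LPS+SeV+CpGB the libraries were far apart, at 2795, 3195 and 1599 CPM. Cd40 was called higher than Ctrl in 20 of 21 pairs and in 35 of 35 triplets. Over the 5 tested members this held for 85 of 105 pair comparisons (13.7% of all genes') and 157 of 175 triplet comparisons (15.7%), and 0 were called lower (8.44% and 10.2%). Without Icosl the counts were 70 of 84 and 133 of 140.

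Cd83, the maturation marker, lies on chromosome 13 (43784775 to 43803132, plus strand) and moved least with single ligands. Ctrl was at 41.6, 74.8 and 76.8 CPM, LPS at 149, 127 and 121 CPM, CpGB at 165, 112 and 129 CPM, and PAM at 52.5, 50.3 and 72.2 CPM. The LPS and CpGB libraries were above those of Ctrl, yet neither difference was called: 0.97 log2 with LPS (SE 0.39, adjusted p = 0.0433) fell just short of the fold threshold, and 0.98 with CpGB (SE 0.39) had an adjusted p of 0.0575. Without the filter on low counts both passed, at 1.22 (adjusted p = 0.0225) and 1.17 (adjusted p = 0.0474). Over the 22 backgrounds, LPS raised Cd83 by 0.96 on average (SE 0.06, adjusted p = 5.94e-37), upward in 22 of 22 and called in 10, beside 6.09% of all genes' additions of LPS. CpGB raised it by 0.72 (SE 0.06, adjusted p = 3.84e-23), upward in 21 of 22 and called in 8, beside 2.65%. Pairs and triplets then passed against Ctrl in 11 of 21 and 29 of 35 cases. LPS+CpGB gave 217, 284 and 301 CPM, and LPS+HMW+CpGB, the highest group, 357, 355 and 271 CPM. PAM alone was not called for Cd83 (-0.18 log2, adjusted p = 0.854), and cells given PAM with LPS reached 217 ± 34.0 CPM from 58.3 ± 12.1 (SD, n = 3), a step of 1.88 log2 (SE 0.29, adjusted p = 1.34e-08). Over LPS alone, at 132 CPM, the same pair was higher by 0.73 log2 and not called (adjusted p = 0.0782).

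Cd86, the more abundant of the 2 CD28 ligands in these libraries, lies on chromosome 16 (36603869 to 36666081, minus strand). Ctrl held 9 UMIs, or 27.7, 49.9 and 28.8 CPM. cGAMP gave 431, 397 and 381 CPM, LPS 335, 249 and 237 CPM, and SeV 153, 130 and 145 CPM, each above every Ctrl library. The log2 fold changes were 3.49 with cGAMP (SE 0.42, adjusted p = 3.05e-13), 2.91 with LPS (SE 0.44, adjusted p = 6.07e-09) and 2.00 with SeV (SE 0.51, adjusted p = 0.00137). PAM, at 91.9, 85.5 and 100 CPM, was also above Ctrl in every library, by 1.38 log2, and had an adjusted p of 0.0646. CpGB, at 29.1, 66.4 and 120 CPM, overlapped Ctrl (1.18 log2, adjusted p = 0.126). In a fit of Ctrl and the single ligands alone, PAM (adjusted p = 0.0239) and CpGB (adjusted p = 0.0445) also passed, so these 2 calls depend on the fit, and the 9 Ctrl counts limit all of them. Between ligands, cGAMP and LPS differed by 0.58 log2 with an adjusted p of 0.0764, and LPS stood above SeV by 0.91 (adjusted p = 0.013, under the fold threshold).

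cGAMP had the largest mean effect on Cd86, 1.75 (SE 0.06, adjusted p = 5.71e-78), upward in 22 of 22 backgrounds and called in 16. Those 16 were the backgrounds without LPS, where the steps ran from 1.09 to 3.49 with a median of 2.18. On the 6 backgrounds with LPS the steps ran from 0.37 to 0.95 and 0 of 6 were called. LPS raised Cd86 by 1.07 (SE 0.06, adjusted p = 2.03e-42). On the 16 backgrounds without cGAMP its median step was 1.39, called in 10, and on the 6 with cGAMP it was -0.08, called in 0. SeV raised Cd86 by 0.72 (SE 0.06, adjusted p = 1.38e-22), called in 8 of 22 backgrounds (2.93% of all genes' additions of SeV), with a median of 1.02 without cGAMP and 0.11 with it. CpGB, the second strongest ligand for Cd40, had a mean effect on Cd86 of 0.10 (SE 0.07, adjusted p = 0.265), with 11 differences up and 11 down.

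Group means of Cd86 followed cGAMP and LPS, with overlap. The 16 groups with cGAMP and no LPS lay between 312 and 572 CPM, the 6 with both between 339 and 466 CPM, the 16 with LPS and no cGAMP between 210 and 384 CPM, and the 25 stimulated groups with neither between 51.3 and 317 CPM. The highest 2 were HMW+Zymosan+cGAMP at 572 ± 54.2 CPM and Zymosan+cGAMP at 556 ± 78.0 CPM (SD, n = 3). For Cd40 the same classes overlapped in another order: LPS without cGAMP spanned 1332 to 3075 CPM, and cGAMP without LPS 518 to 1961 CPM.

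**Figure D2:**
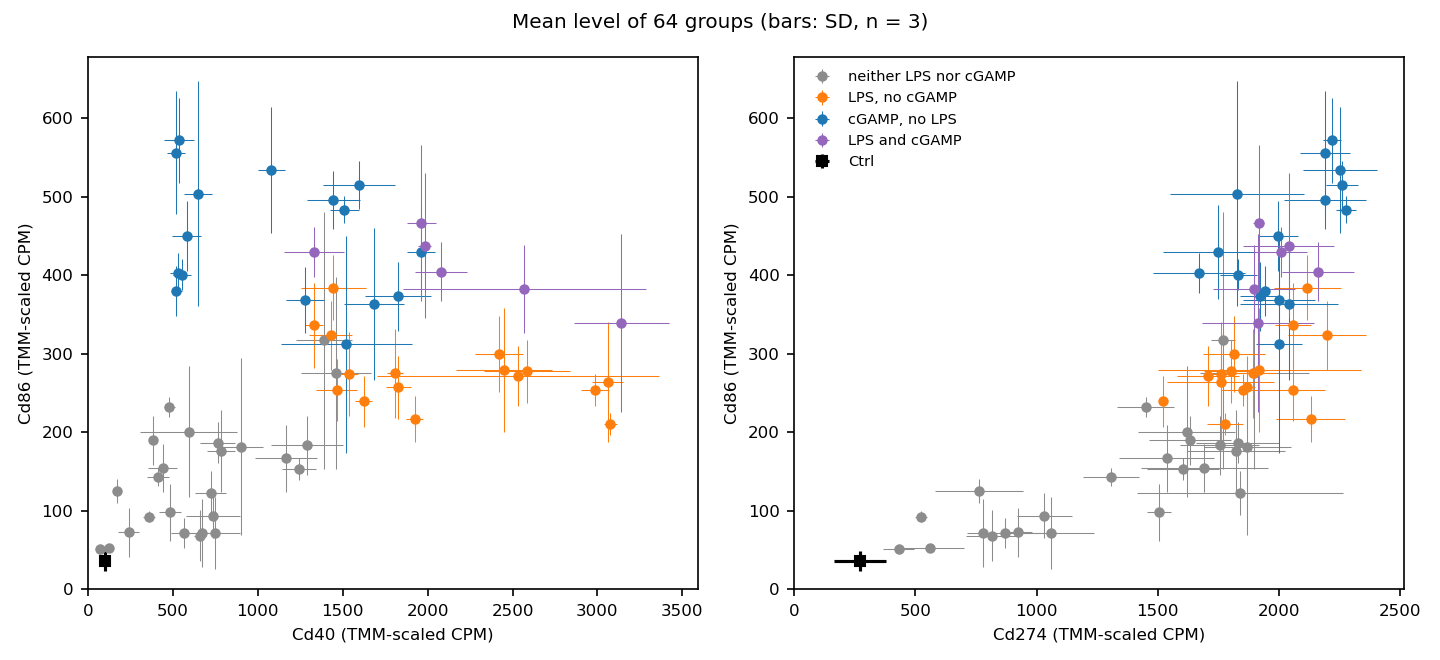
Mean CPM of Cd86 against that of Cd40 and of Cd274 in the 64 groups (1 point each, mean of 3 libraries), coloured by whether the group held LPS, cGAMP, both or neither. Groups with cGAMP and no LPS reach 572 CPM of Cd86 while staying at or under 1961 CPM of Cd40.

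Cd80, the other CD28 ligand (chromosome 16, 38455561 to 38496335, plus strand), stayed near the limit of counting. Ctrl, Zymosan, SeV, cGAMP and CpGB alone had 0 UMIs in their 3 libraries, PAM had 2, LPS 1 and HMW 1. A count of 0 in Ctrl allows a level of up to 11.7 CPM, and none of the 63 stimulated groups was above that level. Summed over groups, the 22 that held cGAMP had 31 UMIs and the other 42 had 25, a ratio of levels of 2.55 with a 95% counting interval of 1.46 to 4.50. The 22 groups with Zymosan had 7 UMIs and the other 42 had 49, a ratio of 0.285 (0.109 to 0.632). For the other 5 ligands the interval included 1. These intervals cover counting error only and not the spread between libraries. In the fit without the filter 0 of 7 single ligands were called for Cd80, and 0 had an unadjusted p under 0.05. The mean effects in that fit were 0.91 for cGAMP and -0.64 for Zymosan, each with an adjusted p of 1, so the differences in summed counts passed no test over libraries. With 33 of the 64 groups at 0 UMIs these means depend on the prior count, and their p says little either way.

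The PD-1 ligands Cd274 and Pdcd1lg2 are neighbours on chromosome 19, both on the plus strand. Cd274 spans 29367455 to 29388095 and Pdcd1lg2 29410919 to 29471161 (GENCODE annotation of GRCm38), and 22823 bases separate the end of the first from the start of the second. The 250 bases before the start of each RefSeq transcript (GRCm38.p6) are shown because the 2 genes share a locus and differed in level. The windows were searched on both strands for an interferon-response motif (GAAA, any 2 bases, GAAA), a STAT motif (TTCNNNGAA), the NF-kB consensus and the AP-1 motif (TGANTCA), which occur in 2.98%, 7.02%, 7.25% and 6.75% of 32851 promoter windows of that length. The window of Cd274 is chr19:29367188-29367437 and that of Pdcd1lg2 chr19:29410669-29410918, both read 5′ to 3′ on the plus strand, and capitals mark a match.
Cd274: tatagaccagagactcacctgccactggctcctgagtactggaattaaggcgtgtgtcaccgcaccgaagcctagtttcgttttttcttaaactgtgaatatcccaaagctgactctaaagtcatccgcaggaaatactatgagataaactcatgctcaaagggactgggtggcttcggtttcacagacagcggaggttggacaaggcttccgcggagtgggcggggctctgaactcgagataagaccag
Pdcd1lg2: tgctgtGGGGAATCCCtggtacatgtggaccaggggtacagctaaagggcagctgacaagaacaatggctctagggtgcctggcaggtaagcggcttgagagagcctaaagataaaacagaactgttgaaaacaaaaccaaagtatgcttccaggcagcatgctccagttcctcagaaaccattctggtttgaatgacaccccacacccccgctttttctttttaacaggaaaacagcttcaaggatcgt
Pdcd1lg2 held 1 match, to the NF-kB consensus, at -244 to -235 from the start, and Cd274 held none of these letters in its window. A match is a description of the sequence and not a site.

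Cd274 (PD-L1) rose with more ligands than any other member except Cd40. Ctrl was at 152, 362 and 298 CPM, LPS at 1831, 1724 and 1727 CPM, cGAMP at 1852, 1683 and 1473 CPM, SeV at 1175, 1364 and 1384 CPM, and CpGB at 864, 1210 and 1102 CPM. Those 12 libraries were all above Ctrl, by 2.67 log2 with LPS, 2.59 with cGAMP, 2.25 with SeV and 1.96 with CpGB (largest adjusted p of the 4 5.83e-20). The neighbours in that order were not separated by the test (adjusted p = 0.77, 0.223 and 0.125), and CpGB stood above Zymosan by 0.96 (adjusted p = 4.99e-09). Zymosan, at 552, 704 and 420 CPM, PAM, at 538, 493 and 539 CPM, and HMW, at 441, 489 and 362 CPM, had means above every Ctrl library. Zymosan missed the fold threshold at 0.996 log2 (adjusted p = 6.49e-05) as did PAM at 0.92 (adjusted p = 9.5e-05), and HMW, at 0.64, had an adjusted p of 0.096. Without the filter Zymosan (1.18) and PAM (1.11) passed.

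All 21 pairs and 35 triplets were called higher for Cd274, with group means from 764 to 2276 CPM in pairs and from 815 to 2261 CPM in triplets. The median over the triplets was 1896 CPM and the highest group, PAM+cGAMP, had libraries at 2303, 2297 and 2228 CPM, beside 1761 CPM with LPS alone. On average cGAMP raised Cd274 by 0.84 (SE 0.03), LPS by 0.75 (SE 0.03) and SeV by 0.59 (SE 0.03). LPS was called on 8 of 16 backgrounds without cGAMP (median 0.95) and on 0 of 6 with it (median 0.03). Zymosan, with a mean below 0 for Cd40, gave Cd274 differences above 0 in 20 of 22 backgrounds, 0.41 on average (SE 0.03, adjusted p = 8.18e-33), under the 0.5 threshold. In 10 of the 22 the rise had an adjusted p under 0.05, and in 0 of 22 was there a fall at that level; with no fold threshold, 4.01% of all genes' additions of Zymosan were higher and 1.95% lower. The mean was between 0.36 and 0.46 in the 9 alternatives. Added to CpGB it took Cd274 from 1059 ± 177 to 1839 ± 427 CPM (SD, n = 3; 0.78 log2, adjusted p = 2.56e-07).

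**Figure D3:**
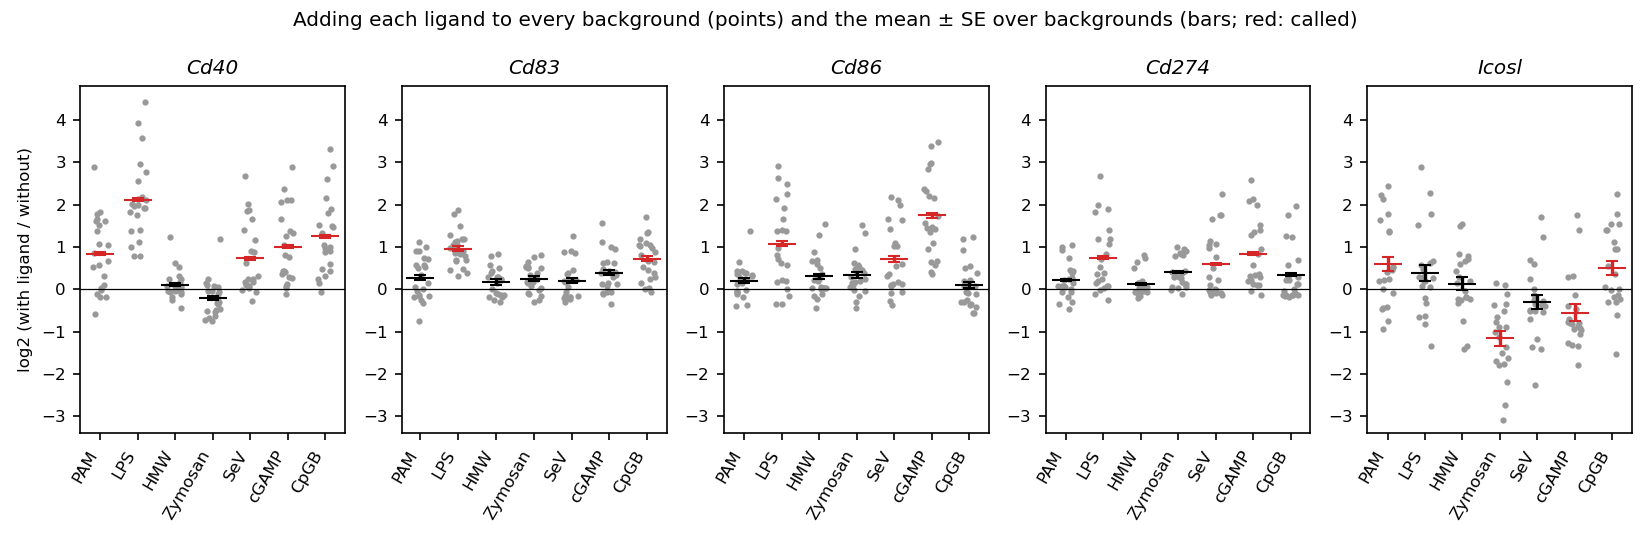
Log2 difference in each of the 5 tested genes when a ligand was added; gray points are single backgrounds (22 for each ligand, 21 for Icosl, whose Ctrl background is left out), the bar is their mean with its SE, and red marks a called mean. Adding LPS gives the largest mean for Cd40 (2.11) and adding cGAMP the largest for Cd86 (1.75), and adding Zymosan gives the lowest for Icosl (-1.15).

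Pdcd1lg2 (PD-L2) was seen in few molecules. Ctrl had 0 UMIs. SeV had 1, 7 and 4 UMIs in its 3 libraries. Its pooled level was 2.29 times the 11.7 CPM that a count of 0 allows in Ctrl. LPS had 2, 6 and 1, at 1.43 times that limit. These ratios leave out the counting error of the stimulated group and so are not lower bounds. The highest group was HMW+SeV+cGAMP with 5, 6 and 3 UMIs, at 2.67 times the limit. The pooled level of 23 of 63 groups was above the Ctrl limit. Groups with LPS had a summed level 1.35 times that of groups without it (95% counting interval 1.07 to 1.69), and for the other 6 ligands the interval included 1. In the fit without the filter, which tests this gene, SeV passed against Ctrl (adjusted p = 0.0375) and LPS had a mean effect of 0.67 over the 21 backgrounds that held a ligand (adjusted p = 0.0409). LPS alone did not pass against Ctrl (adjusted p = 0.1), nor did the mean effect of SeV over the 21 (0.42, adjusted p = 0.472). Against Ctrl 0 of 21 pairs and 3 of 35 triplets were called. Over the study its neighbour Cd274 gave 54851 UMIs and Pdcd1lg2 327; UMIs count molecules, so these totals need no correction for transcript length.

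Icosl, the ligand of ICOS, lies on chromosome 10 (78069302 to 78083913, plus strand). No UMI was counted in Ctrl, so a fold is given as the pooled level of a group over that of 3 counts in Ctrl. It allows for counting error in Ctrl alone and is not a lower bound. PAM gave 65.6, 40.2 and 55.6 CPM (28 UMIs, 4.51-fold) and LPS 52.1, 61.0 and 40.3 CPM (27 UMIs, 4.29-fold). CpGB gave 58.2, 20.4 and 36.9 CPM (18 UMIs, 2.98-fold). The adjusted p-values of these 3 against Ctrl were 0.000354, 0.000294 and 0.00386, for a gene that entered the test only through the stimulated libraries in which it was counted. HMW had 8 UMIs, cGAMP 7, Zymosan 4 and SeV 3, and these were not called. cGAMP and SeV, which raised Cd86, left Icosl uncalled, and PAM raised Icosl with no call for Cd86. For cGAMP in Icosl (adjusted p = 0.0739) and PAM in Cd86 (adjusted p = 0.0646) the missed calls lie near the threshold. A missed call is not a difference between ligands. In 51 of the 63 stimulated groups Icosl was above the limit of Ctrl.

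When a ligand was added to the 21 backgrounds that already held a ligand, Icosl was the 1 tested member with a called mean fall. The Ctrl background was left out because its count of 0 leaves the mean undetermined: with it, no fall was called (Zymosan -0.94 and cGAMP -0.32, adjusted p = 1 and 0.981), and LPS was called higher (0.65, adjusted p = 0.00321), which it was not over the 21 (0.39, adjusted p = 0.0603). Zymosan lowered it by 1.15 log2 on average (SE 0.18, adjusted p = 4.91e-09; 4.05% of all genes were lower), with 19 of 21 differences below 0. cGAMP lowered it by 0.55 (SE 0.20, adjusted p = 0.0127; 9.96%), with 17 of 21 below 0. PAM raised it by 0.59 (SE 0.16, adjusted p = 0.00106; 6.27% higher) and CpGB by 0.50 (SE 0.16, adjusted p = 0.00853; 5.15%). The fall with Zymosan was called in each of 8 alternative fits, from -1.05 to -1.69. With a replicate left out, 1 to 3 stimulated groups held no UMI of Icosl, so the size of a mean over them depends on the prior count. The other 3 means did not keep their call throughout. For cGAMP the mean was -0.80 without replicate 2 and -0.36 without replicate 3; the adjusted p was 1 in both, where groups at 0 leave the mean undetermined and this p says nothing about it. PAM lost its call with library size as the scale (0.47, adjusted p = 0.00886) and without replicate 2 (0.49, adjusted p = 0.0763). CpGB lost it with library size (0.45, adjusted p = 0.0191), with the replicate block (0.496, adjusted p = 0.00859) and without replicate 2 (0.46, adjusted p = 0.108). Calls were also gained over the 21 backgrounds. LPS was called higher without replicate 1 (0.63, adjusted p = 0.0113), and SeV lower without replicate 2 (-0.78, adjusted p = 0.00542). The clearest single step was Zymosan on LPS, from 52.1, 61.0 and 40.3 CPM to 11.5, 8.93 and 0 CPM, with no overlap (-2.73 log2, SE 0.68, adjusted p = 0.00353). Zymosan on PAM was smaller, from 53.8 ± 12.8 to 40.2 ± 7.51 CPM (SD, n = 3), and not called (adjusted p = 0.824). Summed over groups, the 22 with Zymosan had 156 UMIs of Icosl and the 42 without it 664, a ratio of levels of 0.468 (95% counting interval 0.391 to 0.558).

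**Figure D4:**
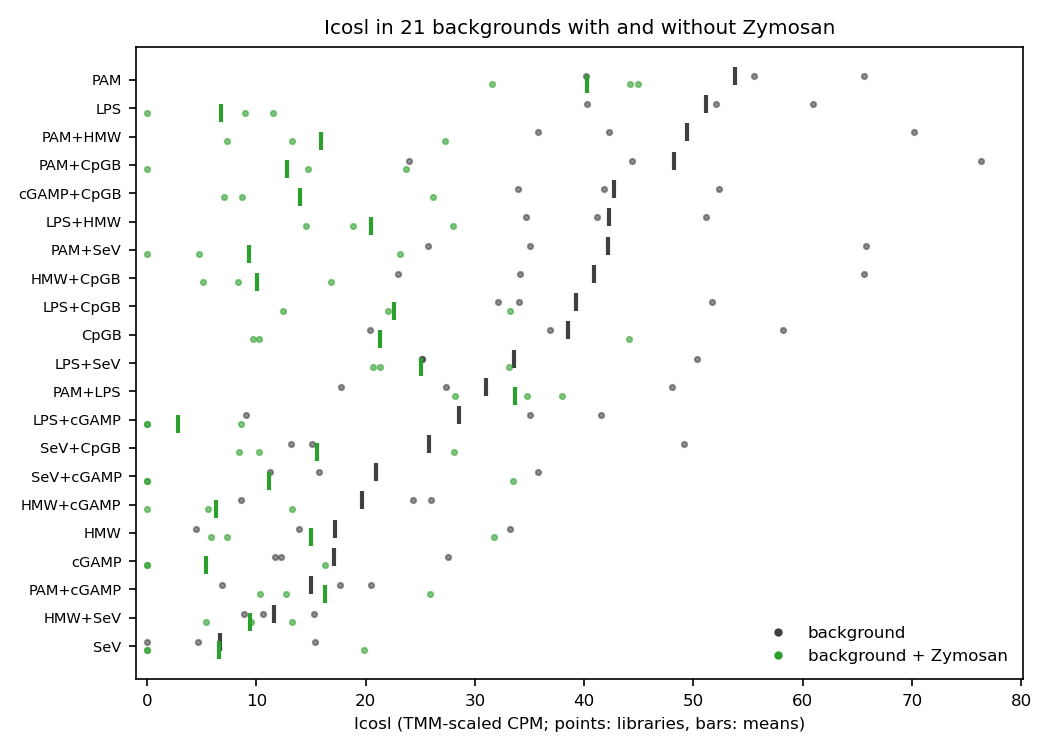
Icosl level in CPM in each of the 21 backgrounds that held a ligand, without and with Zymosan. Points are libraries and short bars are the group means. In 19 of the 21 backgrounds that held a ligand the fitted difference is below 0, and the LPS background falls from 51.1 to 6.81 CPM.

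Over every addition of a ligand to a background, 157 of 770 differences in the 5 tested members were called higher, beside 3.28% of all genes', and 4 lower, beside 1.65%. By gene, 59 of the rises were in Cd40, 39 in Cd86, 29 in Cd274, 22 in Cd83 and 8 in Icosl, and the 4 falls were all in Icosl. Icosl had no UMI in Ctrl, so on that background it could only rise. With the Ctrl background left out for the 5 members, 142 of 735 differences were called higher, 5 of them in Icosl, and 4 lower. The falls were with Zymosan on LPS and on PAM+HMW, with SeV on PAM+Zymosan and with cGAMP on PAM.

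HMW gave 0 calls alone, and over its 22 backgrounds it was called higher in 1 case for Cd40, in 2 cases for Cd86 and in 0 for Cd83, Cd274 and Icosl (0.443% of all genes' additions of HMW). In Cd40, Cd83, Cd86 and Cd274 alike its largest step was on PAM+Zymosan. Cd86 went there from 73.7, 103 and 40.0 CPM to 283, 117 and 201 CPM, with no overlap (1.54 log2, SE 0.33, adjusted p = 0.000153). Cd274 went from 863, 980 and 924 CPM to 1833, 1436 and 1592 CPM (0.81 log2, SE 0.13, adjusted p = 1.13e-07). Cd40 went from 168, 280 and 270 CPM to 917, 479 and 384 CPM (1.24 log2, SE 0.20, adjusted p = 9.13e-08). In the triplet the first library was the highest for these 3 genes. The step in Cd83, 0.83 log2, had an adjusted p of 0.065, and the three-way term of this triplet was not called in any of the 4 genes (adjusted p between 0.921 and 0.984).

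Pairs were next compared with the sum of their single effects on the log2 scale. An interaction below 0 means that the pair was lower than the sum of the 2 effects. Leaving out Icosl, whose Ctrl counts of 0 leave the sum undefined, 20 of 84 member interactions had an adjusted p under 0.05, all below 0, beside 3.50% of all genes' interactions below 0 and 1.08% above. Cd274 had 9 of them, Cd40 8, Cd86 3 and Cd83 0, and 14 of the 20 kept their call in all 8 alternative fits. LPS+cGAMP was in each of the 3 genes: Cd40 reached 2077 ± 152 CPM, beside 1538 and 528 CPM with the single ligands (interaction -1.95, SE 0.33, adjusted p = 5.91e-07). Cd86 reached 404 ± 37.7 CPM, beside 274 and 403 CPM (interaction -2.90, SE 0.51, adjusted p = 1.31e-06), which is the level of cGAMP alone. Cd274 reached 2162 ± 148 CPM, beside 1761 and 1669 CPM (interaction -2.29, SE 0.22, adjusted p = 5.83e-19). LPS+SeV and SeV+cGAMP were likewise below the sum in Cd40, Cd86 and Cd274. In Cd86 the call for LPS+SeV was lost without replicate 1 and without replicate 3, and that for SeV+cGAMP without replicate 3. PAM+CpGB was below it in Cd40 (-2.00, adjusted p = 2.39e-06), at 601, 800 and 608 CPM, which overlapped the 650, 914 and 687 CPM of CpGB alone.

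In 4 cases a pair was called above both of its single ligands (0.353% of all genes' comparisons), 3 of them in Cd40. PAM+cGAMP gave 1597, 1504 and 1429 CPM of Cd40, beside means of 360 and 528 CPM, a step of 2.06 log2 over PAM and 1.52 over cGAMP. PAM+SeV gave 1072, 1310 and 1493 CPM, beside 360 and 413 CPM, and cGAMP+CpGB 1630, 1824 and 2019 CPM, beside 528 and 750 CPM. For PAM+SeV and PAM+cGAMP the interaction was -0.16 and -0.31 (adjusted p = 0.951 and 0.832), so these pairs were not separated from the sum of their effects on the log2 scale. cGAMP+CpGB was below the sum (-1.10, SE 0.35, adjusted p = 0.0324), a call that was lost without replicate 1 and without replicate 2. The fourth was LPS+CpGB in Cd83, at 267 ± 44.5 CPM beside 132 and 135 CPM; its steps of 1.05 log2 are close to the fold threshold, and it was lost with RLE scaling, library size scaling and DESeq2, and without replicate 2 or replicate 3. In 0 cases was a pair below both singles (0.0504%).

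**Figure D5:**
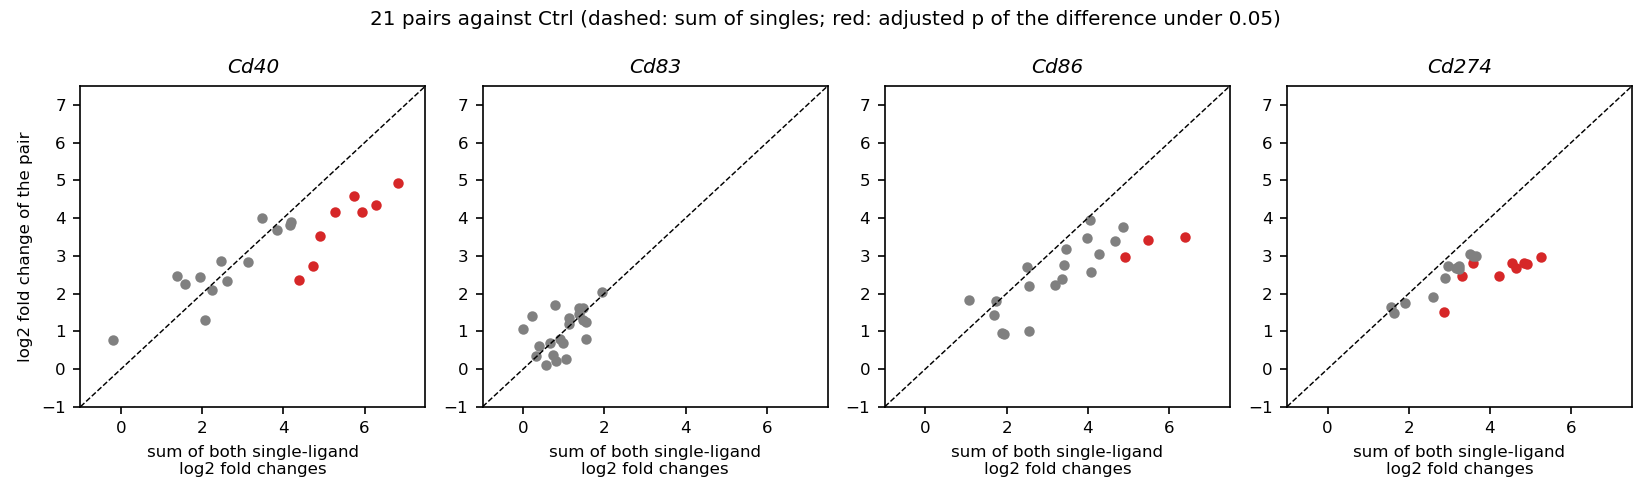
For each of 21 pairs, the log2 fold change of the pair over Ctrl against the sum of those of its 2 ligands, in Cd40, Cd83, Cd86 and Cd274; the line marks equality and red points have an interaction with an adjusted p under 0.05. All 20 red points lie below the line, 9 of them in Cd274.

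In triplets, 0 of 175 member comparisons were called above all 3 pairs (0.0115% of all genes' comparisons) and 0 below all 3 (0%). The three-way term, which asks whether a triplet departs from what its pairs and singles add up to, was above 0 at an adjusted p under 0.05 in 9 of 140 cases without Icosl (0.803% of all genes'), of which 5 were in Cd274, 3 in Cd40 and 1 in Cd86, and below 0 in 0 cases (0.13%). LPS+SeV+cGAMP was in each of these genes: Cd40 1.73 (SE 0.41, adjusted p = 0.00181), Cd86 2.13 (SE 0.65, adjusted p = 0.0283) and Cd274 1.84 (SE 0.28, adjusted p = 4.56e-08). The triplet's Cd86 level was 437 CPM and that of its highest pair 404 CPM. LPS+SeV+cGAMP in Cd40 and 4 terms in Cd274 kept their call in all 8 alternative fits, and the Cd86 term lost it when any of the 3 replicates was left out (1.95 without replicate 1, adjusted p = 0.0817). These terms use the same Ctrl and single-ligand libraries as the pair terms.

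Across the 64 group means, the members followed each other to different extents; the groups share ligands, so the correlations are descriptions. Pearson's r of log2 levels was 0.83 between Cd40 and Cd83 and 0.85 between Cd86 and Cd274, but 0.60 between Cd40 and Cd86 and -0.09 between Cd86 and Icosl. Against the mean of 4 interferon-induced genes (Mx1, Ifit1, Rsad2 and Isg15), r was 0.93 for Cd274, 0.88 for Cd86, 0.77 for Cd40, 0.60 for Cd83 and 0.05 for Icosl. Against 4 NF-kB target genes (Tnf, Tnfaip3, Il1b and Nfkbia) it was 0.69 for Cd40, 0.63 for Cd83, 0.48 for Icosl and Cd274 and 0.29 for Cd86. The tested genes most like each member over the 64 groups included Ccl5, a chemokine, for Cd40 (r = 0.94), Gadd45b (0.88) and Dusp2 (0.85) for Cd83, Oasl1 (0.95) and Clic4 (0.93) for Cd86, Irgm1 (0.94) and Nt5c3 (0.94) for Cd274, and Itgal (0.79) and Lmo4 (0.79) for Icosl.

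Related genes were counted by the same rule. Of 18 other costimulatory and coinhibitory ligands, 10 were tested, and 5 of them rose with cGAMP (11.7% of all genes), 4 with LPS (14.6%), 4 with CpGB (10.8%), 3 with PAM (8.01%), 3 with SeV (10.5%), 1 with HMW (0.953%) and 0 with Zymosan (4.43%). Over the 7 ligands that is 20 of 70 comparisons higher, beside 8.70% of all genes', and 6 lower, beside 4.95%. Tnfsf15 (TL1A, the ligand of DR3) went from 50.1 ± 11.1 CPM in Ctrl to 843 ± 88.7 CPM with cGAMP (SD, n = 3). Lgals9, a galectin, went from 144 ± 16.3 to 824 ± 6.33 CPM with LPS. The 6 falls were of 1 gene, with each ligand other than HMW: 4632428N05Rik, the deposited symbol of Vsir (VISTA, a coinhibitory ligand), at 193 ± 18.3 CPM in Ctrl and between 29.5 and 88.3 CPM with those 6.

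Of 18 genes of dendritic cell maturation, 14 were tested, and 7 rose with LPS (14.6% of all genes), 7 with CpGB (10.8%), 6 with PAM (8.01%), 5 with SeV (10.5%), 5 with cGAMP (11.7%), 1 with Zymosan (4.43%) and 0 with HMW (0.953%). Over the 7 ligands 31 of 98 comparisons were higher (8.70% of all genes') and 0 lower (4.95%), and the count with Zymosan was near that of all genes. Their median with LPS was 1.24 log2, beside -0.06 over all tested genes. Fscn1 (fascin, an actin-bundling protein of mature dendritic cells) was at 94.8 ± 13.8 CPM in Ctrl, 490 ± 63.7 with LPS and 193 ± 36.1 with cGAMP. Il15ra, which presents interleukin 15, rose from 48.4 ± 23.8 CPM to 677 ± 71.0 with cGAMP. Ccl22, a chemokine, rose with PAM, LPS and CpGB, at 1038, 1045 and 1080 CPM, and was the 1 gene called with Zymosan, at 316 CPM (1.11 log2, adjusted p = 0.00201). It was at 136 with SeV and 179 with cGAMP, beside 148 CPM in Ctrl. Marcksl1 was at 184 ± 29.6 CPM in Ctrl and 1085 ± 63.3 with LPS.

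Of 10 genes of CD40 signalling 8 were tested; 3 rose with PAM (8.01% of all genes), 3 with CpGB (10.8%), 2 with LPS (14.6%) and 0 with the other 4 ligands. Over the 7 ligands that is 8 of 56 comparisons, or 14.3%, beside 8.70% of all genes', and 1 lower, beside 4.95%. Traf1, an adaptor of the receptor, went from 62.6 ± 10.6 CPM in Ctrl to 302 ± 36.2 with PAM (SD, n = 3), and LPS gave 299 ± 24.7 and CpGB 180 ± 32.3. Nfkb2, a subunit of the non-canonical NF-kB pathway, was at 139 ± 14.5 CPM in Ctrl, 405 ± 88.8 with LPS and 117 ± 10.6 with cGAMP, which raised Cd40 and left Nfkb2 uncalled. Traf3, a negative regulator of that pathway, named after its values were seen, was the 1 gene of the list called lower, from 43.6 to 8.87 CPM with SeV (-2.29 log2, SE 0.84, adjusted p = 0.0382).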

How the data were processed

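Counts are UMIs per gene as the authors deposited them, 1 column per library for mouse bone marrow-derived dendritic cells sequenced on a NextSeq 550, per the labels. The submitters' processing notes name BWA 0.7.15 and mm10; the counting tool and annotation are not given in the sources used here, so reads shared by close gene copies or by overlapping genes cannot be told apart.

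The 7 members and all gene lists were chosen with earlier results of these data known. Genes passing filterByExpr (4720 of 23481, holding 95.7% of UMIs) were fitted in 1 edgeR 4.0.16 quasi-likelihood model of all 64 groups (R 4.3.3) with TMM scaling, and the Benjamini-Hochberg adjustment covered all tested genes in each contrast. Standard errors are the fold change divided by the root of its F value. A call needs an adjusted p under 0.05 and a log2 fold change of at least 1, a mean effect at least 0.5, and an interaction no fold. A pair above both singles, or a triplet above all 3 pairs, needs a log2 fold of 1 over each, with the largest p adjusted.

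Named genes are the members, the 2 genes most correlated with each over the group means, and up to 4 genes of each list, those called with the most single ligands. One gene that this rule names is not reported here. Intervals on ratios of summed UMIs are exact binomial 95% intervals turned into ratios of levels. A count of 0 is given an upper level of 3 counts over the group. Both cover counting error only. The script was tested on simulated data. Alternatives were RLE and library-size scaling, no filter, DESeq2 1.42.0, a replicate block, a fit of single ligands only, and leaving out replicates.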

Additional observations from a re-analysis of the deposited data

How the results depend on the processing

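Alternatives changed few counts by over 1.5 times. Against Ctrl, 15 calls with single ligands became 15 with RLE, library size and DESeq2, 18 with no fold threshold and 21 with no filter on low counts. The fit of single ligands alone also gave 15, but not the same ones: Icosl, with 3 of the calls, did not pass its filter, and Cd86 with PAM and with CpGB and Cd83 with CpGB (1.03, adjusted p = 0.0282) were gained. The 85 pair calls ranged from 75 (library size) to 85 and the 157 triplet calls from 139 (library size) to 157, and leaving out replicates gave 74 to 81 and 136 to 150. The 25 pair interactions (Icosl included) became 16 to 21 when a replicate was left out of every group, the 9 three-way terms 5 to 7, and the 0 triplets above all 3 pairs 0 to 1 (PAM+HMW+Zymosan in Cd274, without replicate 2). Leaving out replicate 1 gave the lowest of the first 2; the cause was not tested, though each group then has 2 libraries. The 13 mean effects called in Cd40, Cd83, Cd86 and Cd274 kept their call in all 9 alternatives. Of 1146 values of members with single ligands, 77 gained a call, 1 lost it (Icosl with CpGB, without replicate 3, adjusted p = 0.0573) and 5 changed sign, none of them called. Leaving out 1 library let 4959 to 5033 genes pass the filter and moved the fold changes against Ctrl by 0.03 to 0.12. The sign changes were Cd83 with PAM (0.0088 with no filter, 0.064 without replicate 2 and 0.0068 without Ctrl replicate 3, from -0.18; -0.36 to 0.064 over replicates left out) and Cd83 with SeV (-0.024 with library size, -0.089 without SeV replicate 2, from 0.16; -0.089 to 0.59). Among mean effects the sign changed for Cd86 with CpGB (-0.049 without replicate 3 to 0.18 without replicate 2) and Icosl with SeV (0.22 and 0.024 over 22 backgrounds without replicates 1 and 3, -0.64 without replicate 2; 0.045 over 21 backgrounds without replicate 1, -0.78 without replicate 2). Icosl with Zymosan alone had no value without replicate 3, which held all its counts.

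Same-numbered libraries of different groups did not deviate together in expression (mean r 0.0083). Depth did follow the number in some groups: replicates 1, 2 and 3 had 61823, 68941 and 89530 UMIs in Ctrl. With LPS they had 133379, 184640 and 229979. The labels do not say what the number stands for, and a shared batch was not tested beyond this r and the replicate block. With the replicate block the calls were 15 for single ligands, 85 for pairs, 157 for triplets, 16 for mean effects (Icosl and Ctrl included), 25 for pair interactions, 4 for pairs above both singles, 0 for triplets above all pairs, 11 for three-way terms and 48 between single ligands. Depth limits Cd80, Pdcd1lg2 and Icosl in Ctrl most, since a fold against 0 counts rests on an upper level for Ctrl.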
